A study of Mus musculus with 16 samples.

Results

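The regions described here are the m6A peaks of mouse peritoneal macrophages (PMs) that lay in the 3'UTR of a transcript and in no other annotated region. They were taken from the merged peak table of a methylated RNA immunoprecipitation sequencing (MeRIP-seq) experiment by 1 rule. The region annotation of the peak, over its gene lines that name a region, read 3'UTR and nothing else. The rule used no read count. It gave 1133 of the 7069 distinct peaks, and these are called 3'UTR-only peaks. For 1034 of them every gene line gave the 3'UTR, and 99 also overlapped a gene for which the table named no region. A gene line names 1 transcript, and for 123 peaks it was of the nonsense-mediated decay type. Whether such peaks lie in coding sequence of other transcripts was not examined. For comparison, 2396 peaks covered a stop codon and 2244 lay in the coding sequence (CDS) only.

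N6-methyladenosine (m6A) is written on nascent mRNA by a nuclear complex with METTL3 and METTL14 as its core and WTAP as an adaptor, removed by FTO and ALKBH5, and bound by YTH-domain proteins. It is commonest around stop codons and in 3'UTRs, the part of an mRNA where AU-rich elements, microRNA sites and their binding proteins set how long the transcript lasts and how much protein it gives. In macrophages, many cytokine and interferon-response mRNAs are short-lived through their 3'UTRs, so their level can change quickly when lipopolysaccharide (LPS), the cell wall component of Gram-negative bacteria, binds TLR4.

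PMs came from wild-type (WT) mice and from Adap-/- mice, which lack the adaptor protein ADAP encoded by Fyb1, on a C57BL/6 background, as sex-matched littermates of 6 to 8 weeks. They were collected by peritoneal lavage 3 days after thioglycolate, then mock-treated or given LPS at 1 ug/ml for 6 h. Each of the 4 groups had 2 samples, and the fragmented RNA of a sample gave 1 input library and 1 library of RNA bound by an anti-m6A antibody (IP), so 16 libraries in all. The knockout is germline, so every cell of the animal lacked the protein before and during thioglycolate elicitation. Nothing states that the 2 samples of a group came from different animals, so all p-values measure the spread between these samples, which may be technical. In bulk RNA of this kind, fewer cells of a type and less RNA per cell cannot be told apart.

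Peak counts summed to 2121313 to 4325961 reads per input library and 5728590 to 19030373 per IP library, of which 15.7% to 18.5% and 15.3% to 20.1% lay on 3'UTR-only peaks. Fyb1 (chr15, written Fyb in the table) had 4 peaks and no 3'UTR-only peak. Its CDS peak at chr15:6609828-6610128 read 167 to 244 CPM (reads scaled to 1000000 on peaks) in WT input and 0 to 0.321 CPM in Adap-/- input, as the labels say, while a shared peak over a much longer stretch read 37.9 to 76.0 CPM in all samples. Of 8 macrophage markers 7 carried peaks, with a summed input of 12366 to 15477 CPM. Markers of B cells, T cells, eosinophils and mast cells had none. Of 8 neutrophil markers only Csf3r had a peak (186 to 493 CPM, higher after LPS, with Ly6g, S100a8 and S100a9 at no peak), and of 8 mesothelial and fibroblast markers Lrrn4 and Pdgfra did (51.9 to 110.3 CPM in sum). None of these marker peaks was 3'UTR-only, and their part in the results was not tested.

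Replicates agreed closely over the 1133 peaks in input (Spearman rho across peaks 0.983 to 0.988) and after LPS in IP (0.970 in WT, 0.947 in Adap-/-), and less closely in mock IP (0.865 and 0.876). The mock IP libraries also differed in a specific way. IP reads were summed over the 117 3'UTR-only peaks that LPS raised more than 4-fold in input in both genotypes. In WT mock replicate 1 they stood at 78.3% of the mean of the 4 LPS IP libraries, and in Adap-/- mock replicate 2 at 58.2%. The other mock replicates stood at 11.4% and 12.9%. Input of all mock samples stood at 2.96% to 3.39%. Each m6A comparison with a mock group is therefore also given in part without these 2 samples, a choice made after seeing the data. The plot of summed reads per library shows all 16 values.

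The 3'UTR-only peaks fell on 969 genes. Of these, 818 had 1 such peak, 120 had 2 and 31 had at least 3, and 501 genes had no peak of another kind. A stop-codon peak was also present on 308 of the genes and a CDS peak on 165. Tnfsf15, encoding the TNF-family cytokine TL1A, carried the most with 8 peaks, followed by Rassf4 with 5, a gene of the Ras-association domain family. The receptor Notch2, the ubiquitin ligase Trim56, the surface receptor Slamf7, the double-stranded RNA kinase Eif2ak2, Rps6kc1 and Ankrd11 were among those with 4. Peaks of 1 gene share a transcript and are not independent. A further 124 peaks overlapped more than 1 gene, and the gene their reads belong to cannot be told apart.

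The peaks were short, with a median length of 175 bases (quartiles 100 and 225, range 50 to 9314), close to the 175 of CDS peaks and under the 200 bases of stop-codon peaks. There were 113 at the minimum of 50 bases and 27 over 500. The longest lay at chr12:26492744-26502058 over Rsad2, which encodes the antiviral enzyme viperin. From its midpoint, a 3'UTR-only peak lay a median of 1061.5 bases from the annotated 3' end of its transcript (quartiles 411.5 and 2136.5, counted along the genome). Of the peaks, 344 (30.4%) had their midpoint within 500 bases of that end, compared with 439 (18.3%) of the stop-codon peaks, whose median distance was 1583.25 bases. The regions themselves fix this difference in part, since a stop codon lies upstream of its 3'UTR.

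**Figure D1:**
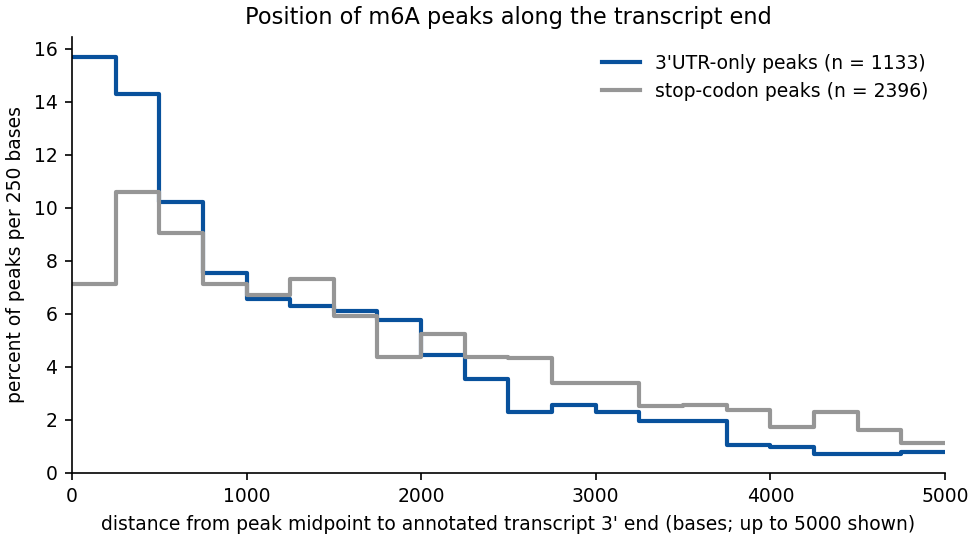
Percent of peaks in each 250 bases (vertical axis) against the distance in bases from the peak midpoint to the annotated 3' end of the transcript (horizontal axis), for the 1133 3'UTR-only peaks and the 2396 peaks over a stop codon. The 3'UTR-only peaks are most frequent in the 2 bins nearest to the end, with 15.7% and 14.3% of peaks, where the stop-codon peaks have 7.11% and 10.6%.

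The strength of the m6A signal was measured as the fitted log2 ratio of IP to input over all 16 libraries, in which 0 is set by the average peak, so a negative value means a lower ratio than the average peak and not an absence of methylation. At an adjusted p below 0.05 (edgeR's quasi-likelihood test), 281 of 1133 3'UTR-only peaks lay above that level, where 28.4% of all 7058 peaks tested did, and 356 lay below it, where 26.3% of all peaks did. Their median was 0.00 and that of all peaks 0.06. The zero depends on the scaling. With IP and input scaled separately, every value moved up by a median of 0.51, and 594 peaks stood above and 130 below. Differences between peaks do not depend on this shift.

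Across the 4 groups the median log2 ratio of 3'UTR-only peaks was -0.05 ± 0.0013 in WT mock, 0.02 ± 0.03 in Adap-/- mock, -0.07 ± 0.02 in WT LPS and -0.14 ± 0.01 in Adap-/- LPS PMs (SD, n = 2). The Adap-/- LPS samples were the lowest pair and overlapped no other group. Stop-codon peaks had group medians of 0.02 to 0.08 and CDS peaks -0.13 to 0.10. Peaks in the 5'UTR had medians of 0.36 to 0.64, with 0.36 in Adap-/- LPS and 0.64 in WT LPS PMs. Start-codon peaks had -0.14 in Adap-/- LPS and 0.01 in WT LPS PMs. A low median in Adap-/- LPS PMs was thus not confined to 3'UTR-only peaks.

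Within the 3'UTR-only peaks the ratio rose with length. The peaks were defined in this same experiment, so their length may itself depend on the IP signal. The relation is therefore a description and no separate evidence. Its median was -0.28 in the 217 peaks of 50 to 75 bases, -0.29 in the 179 of 76 to 125, -0.08 in the 303 of 126 to 175, 0.11 in the 169 of 176 to 225 and 0.31 in the 265 longer than 225 bases. The share above the average peak rose from 10.6% in the shortest to 45.7% in the longest, and the share below it fell from 39.6% to 17.7%. Median input reads rose over the same classes from 53 to 223, so length and depth moved together. By distance to the 3' end, the median was lowest at 501 to 1000 bases (-0.21) and highest at 2001 to 4000 bases (0.18). Across the 1133 peaks the Spearman rho with the ratio was 0.28 for length and 0.11 for distance. It was -0.56 for mean input reads and -0.71 for input CPM per 100 bases. Both input measures share the input libraries with the ratio, and peaks of 1 gene are not independent points. The 3'UTR-only peaks with the highest mean IP level were those of the lysosomal protease gene Ctsb (17393 to 30616 CPM over the 8 IP libraries), Rsad2 (440.2 to 9806 CPM) and the TNF receptor gene Tnfrsf1b (3799 to 13803 CPM). Peaks shared by more than 1 gene had a median of -0.29 (n = 124) and the others 0.03 (n = 1009).

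**Figure D2:**
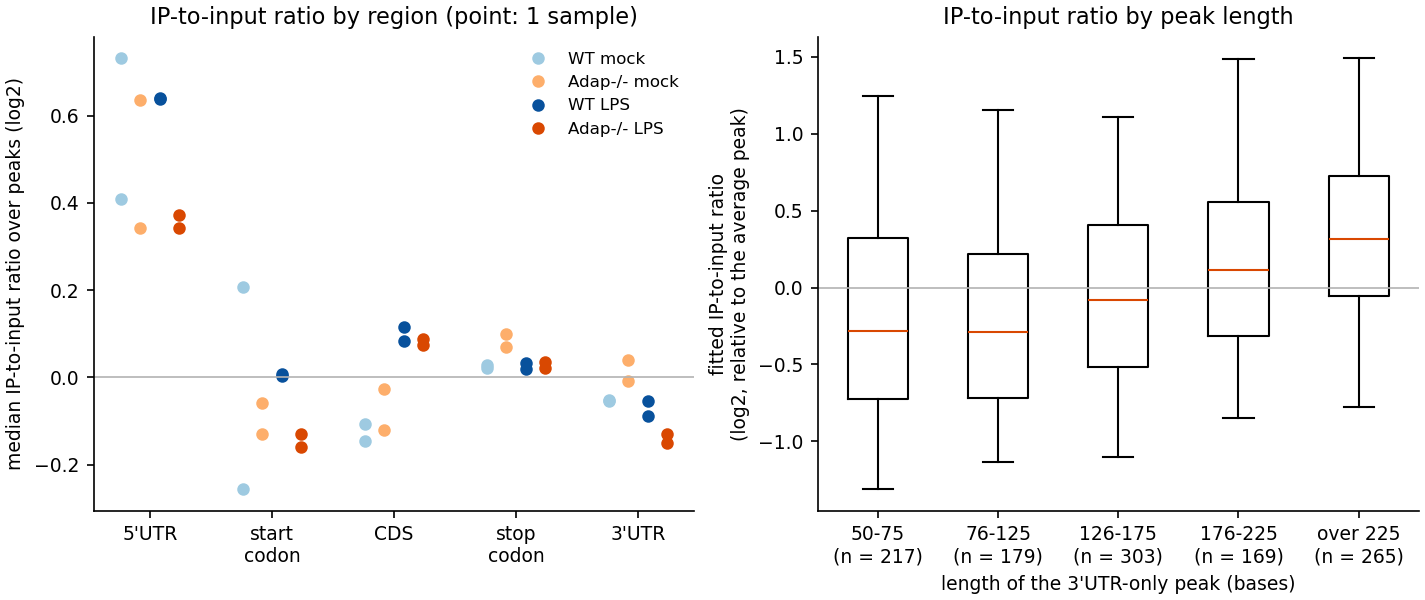
Left, the median log2 IP-to-input ratio over the peaks of a region (vertical axis), 1 point for each of the 8 samples, by region (horizontal axis). Right, the fitted log2 ratio of the 1133 3'UTR-only peaks by peak length in bases (box: quartiles and median; whiskers: 5th to 95th percentile), with medians from -0.28 in the shortest to 0.31 in the longest class.

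Among 3'UTR-only peaks with a mean of at least 10 input reads, the 10 genes with the highest ratios included 9 given here. Foxk1 encodes a forkhead transcription factor, and its peak at chr5:142443607-142443832 had a log2 ratio of 2.37 ± 0.19 (SE, adjusted p = 3.25e-06, edgeR). Chd2, a chromatin remodeller of the CHD family, followed with 2.19 ± 0.17 at chr7:73078810-73079085 (adjusted p = 2.58e-06). Sbf2, a myotubularin-related protein, had 2.04 ± 0.12 at chr7:109907744-109908044 (adjusted p = 8.35e-07), with 54.6 to 84.5 CPM in the 8 input libraries and 255 to 447 CPM in the 8 IP libraries, so the ranges did not touch. The histone gene H2ax showed the same separation at chr9:44247090-44247365, with 25.7 to 39.5 CPM in input, 92.3 to 174 in IP and a log2 ratio of 1.76 ± 0.08 (adjusted p = 2.56e-07). Lnx2, the calcium and calmodulin kinase gene Camk2g (1.91) and Slx4ip (1.73) were also among the 10 highest. A further pair, the vasoconstrictor gene Edn1 (2.15 ± 0.79, adjusted p = 0.0383) and Ppfia3 (1.77), rest on uneven mock libraries. Edn1 IP read 46.6 and 0.699 CPM in WT mock and 6.1 and 24.5 CPM in Adap-/- mock samples.

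The lowest ratio was that of Cd300lb, an activating receptor of the CD300 family, with -3.66 ± 0.34 at chr11:114814406-114814531 (adjusted p = 1.19e-05, edgeR). Next came a peak at chr15:3309826-3309901 (-3.49) on Ccdc152 and on a gene given here only by its identifier (ENSMUSG00000064373). The phospholipase Pnpla7 (-3.12), a peak shared by Agbl5 and Ost4 (-2.97) and the pyridoxal kinase gene Pdxk (-2.80) followed. Each value is a mean over the 4 groups. The Adap-/- LPS IP libraries held no read of this Cd300lb peak. The ratios of Pnpla7 and Pdxk were also lower in Adap-/- than in WT LPS PMs by the unadjusted rule given below. For these genes the mean therefore does not describe every group.

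Reads in the input libraries measure the abundance of the RNA fragment under a peak, and here the 3'UTRs of many macrophage transcripts changed after LPS. In WT PMs 245 of the 1111 3'UTR-only peaks with enough input rose (22.1%) and 240 fell (21.6%), with a log2 fold change beyond 1 in size and an adjusted p under 0.05, where 21.3% and 15.6% of all 6794 peaks tested did. In Adap-/- PMs 225 rose and 213 fell, where 19.6% and 13.3% of all peaks did. Their median log2 fold change was -0.15 in WT and -0.06 in Adap-/- PMs, and that of all peaks -0.05 and -0.04. Called in both genotypes in the same direction were 393 peaks, which is 81.0% of the WT and 89.7% of the Adap-/- calls, and none was called in opposite directions. The 22 peaks not tested had too few input reads.

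**Figure D3:**
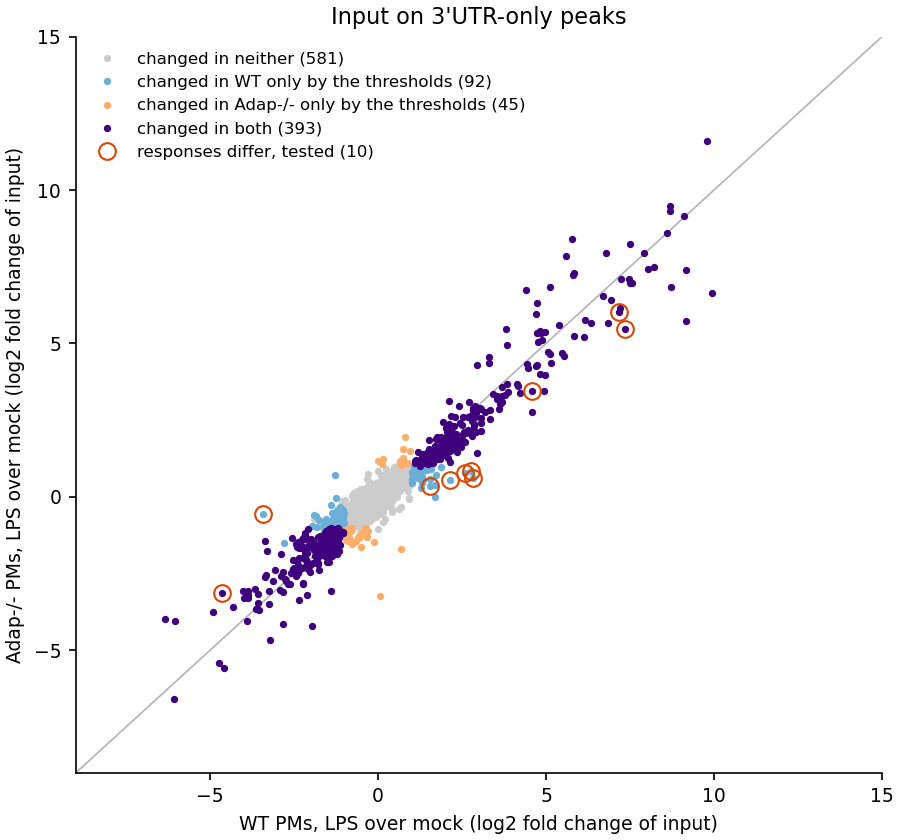
Log2 fold change of input after LPS in WT (horizontal axis) and in Adap-/- PMs (vertical axis) for the 1111 3'UTR-only peaks tested, coloured by the genotype in which the change was called. The points follow the diagonal (393 called in both, 92 in WT only, 45 in Adap-/- only, 581 in neither), and circles mark the 10 peaks whose responses differed in a test of the difference.

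Among the lists, that of cytokines and other secreted mediators had the highest median change. This list of 55 genes, like those that follow, was drawn up with earlier results of these data known. Lists were matched by symbol, so genes given here by identifier count in none of them, and list counts may be short. It had a peak on 41 genes and a 3'UTR-only peak on 16, with 25 peaks in all, 8 of them on Tnfsf15. In WT PMs 21 of the 25 rose and 4 fell, with a median log2 change of 7.20, and in Adap-/- PMs the counts were the same with a median of 6.54. Of all peaks tested, 21.3% rose and 15.6% fell in WT and 19.6% and 13.3% in Adap-/- PMs. These shares stand beside the counts of each list below. The 3'UTR peak of the interleukin 6 gene Il6 (chr5:30224326-30224751) read 1.57 and 0.333 CPM in the 2 WT mock samples, 0 and 0.575 in Adap-/- mock, 1109 and 691 in WT LPS and 946 and 1166 in Adap-/- LPS PMs. Both genotypes started from near 0, and their values overlapped after LPS. The log2 fold change was 9.80 ± 0.35 in WT (SE, adjusted p = 8.97e-15, edgeR), and in Adap-/- PMs, where mock held 2 reads, the ratio was 3481 (95% counting interval 963 to 28754).

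Ptgs2, encoding the prostaglandin synthase COX-2, had a pair of 3'UTR peaks. The upstream one (chr1:149982248-149983073) read 1.25 and 2.99 CPM in WT mock and 4.38 and 3.16 in Adap-/- mock samples, and 1241 and 1129 in WT LPS and 1855 and 2474 in Adap-/- LPS samples. Its log2 fold change was 9.11 ± 0.25 in the WT and 9.16 ± 0.23 in Adap-/- PMs (adjusted p = 2.8e-16 and 2.43e-16). After LPS both Adap-/- samples lay above both WT samples, by 0.87 ± 0.13 (adjusted p = 0.000252), under the fold set for a call. The chemokine gene Cxcl10, whose peak at chr5:92494496-92495321 is shared with Art3, rose from 15.3 and 39.6 CPM to 11055 and 10378 CPM in WT and from 23.8 and 15.8 to 8245 and 7056 CPM in Adap-/- PMs. Its log2 fold changes were 8.62 and 8.60. The neutrophil chemokine gene Cxcl2 rose by 7.93 and 7.95, the IL-6 family cytokine gene Lif by 3.80 and 5.47, and the acute-phase gene Saa3 by 1.47 and 1.43.

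The 8 peaks of Tnfsf15 lay between positions 63643339 and 63647139 of chromosome 4. Each of them rose, by 6.70 to 9.18 in WT and 6.16 to 7.48 in Adap-/- PMs, so the whole stretch moved together. The 4 mediator peaks that fell were on genes of growth and matrix factors: Pdgfa (-2.25 in WT), Pdgfb (-1.47), the endothelial growth factor gene Vegfa, and Tgfbi (-2.34), which encodes a matrix protein.

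Interferon-stimulated genes that were matched by symbol moved 1 way. Of 53 listed genes at least 37 had a peak and at least 10 a 3'UTR-only peak, as genes given by identifier were not matched. The matched genes held 14 such peaks, of which 13 could be tested. All 13 rose in both genotypes, with a median log2 change of 3.88 in WT and 3.56 in Adap-/- PMs, medians that do not move with Ifi44 set at its lower bound. Ifi44, a cytoplasmic interferon-induced protein gene (chr3:151436608-151436708), read 0 and 0 CPM in WT mock and 38.2 and 45.4 in WT LPS samples, which is at least 43.2-fold higher against a floor of 3 reads per library. In Adap-/- PMs it went from 0 and 0.575 to 36.2 and 31.0 CPM, a ratio of 113 (95% counting interval 30.9 to 942). Oasl2 rose by 4.75 and 4.29, the ADP-ribosyltransferase gene Parp14 by 4.12 and 3.66, the signal transducer gene Stat2 by 3.70 and 3.56, and the 3 tested peaks of Eif2ak2 by 3.54 to 3.62 in WT and 3.02 to 3.28 in Adap-/- PMs. Gbp5, a guanylate-binding protein gene, had a ratio of 435 (95% counting interval 77.6 to 17238) in Adap-/- PMs, over 1 mock read. Its log2 change in WT PMs was 5.77.

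Regulators of the NF-kB pathway and its feedback mostly rose where they were called. Of 62 genes 45 had a peak and 11 a 3'UTR-only peak, 13 in all. In WT PMs 7 rose and 1 fell (median 1.52), and in Adap-/- PMs 8 rose and none fell (median 1.47). The cytokine signalling suppressor gene Socs3 had 2 peaks, of which that at chr11:117857254-117857529 rose by 4.77 in WT and 5.04 in Adap-/- PMs. The inhibitor genes Nfkbiz (4.17 and 3.61) and Nfkbie (2.58 and 1.80), the A20-binding protein gene Tnip1 (1.98 and 1.91) and Irak3 (1.52 and 1.47), a brake on TLR signalling, rose in both genotypes. Cish, another SOCS-family gene, has a 3'UTR-only peak shared with a second gene, which rose by 3.30 and 4.38. The kinase gene Irak1 fell in WT PMs (-1.07).

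Of the genes for proteins that act on 3'UTRs or on m6A, few were called at their own 3'UTR-only peaks. Of 51 genes of 3'UTR binding and mRNA decay 21 had a peak and 7 a 3'UTR-only peak, 8 in all, with 1 higher and 1 lower in each genotype and medians of -0.17 in WT and 0.17 in Adap-/- PMs. In each direction 1 of 8 is no larger than the share of all peaks (21.3% and 15.6% in WT, 19.6% and 13.3% in Adap-/- PMs). The riser was Zc3h12c, a Regnase-family RNase gene (3.05 and 2.41). The lower one was Ago4, an Argonaute gene (-1.98), in WT PMs and Tnrc6c, a partner of Argonaute in silencing (-1.04), in Adap-/- PMs. Of 22 genes for m6A writers, erasers and readers 12 had a peak and 2 a 3'UTR-only peak, and none of the 3 peaks was called. The values were 0.54 and 0.40 for the writer adaptor gene Wtap, and 0.19 and 0.90 in WT PMs for the 2 peaks of the nuclear reader gene Ythdc1. The list medians were 0.54 and 0.44.

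Macrophage receptor, lysosome and lipid genes went both ways. Of 57 genes 43 had a peak and 12 a 3'UTR-only peak, 16 in all, with 3 higher and 6 lower in WT (median -0.15) and 3 higher and 5 lower in Adap-/- PMs (median -0.18). Of all peaks 21.3% were higher and 15.6% lower in WT, and 19.6% and 13.3% in Adap-/- PMs. The T cell co-stimulator gene Cd86 rose by 2.77 and 2.09, and both peaks of the integrin gene Itga4 by 1.85 and 1.51 in WT and 1.22 and 1.57 in Adap-/- PMs. The Fc receptor gene Fcgr3 fell at chr1:170878743-170878793, with log2 fold changes of -1.57 in WT and -1.35 in Adap-/- PMs. The integrin gene Itga6 had -2.36 and -1.68. Cd300lb gave the largest fall of the list. Its peak at chr11:114813856-114814231 read 690.3 and 758 CPM in WT mock, 485 and 463 in Adap-/- mock, 30.3 and 23.5 in WT LPS and 11.2 and 11.0 in Adap-/- LPS samples. The log2 fold changes were -4.74 ± 0.14 and -5.41 ± 0.16 (adjusted p = 9.1e-16 and 1.11e-15).

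Outside the lists, Slamf1 and Tarm1 were among the 8 largest rises in WT PMs. Slamf1, a self-ligand receptor, had no read in any mock input at chr1:171627459-171627709 and 13.6 and 21.9 CPM in WT LPS and 27.6 and 25.7 in Adap-/- LPS samples, at least 18.3-fold and 29.6-fold higher. Tarm1, a receptor that stimulates myeloid cells, went at chr7:3535240-3535290 from 0.313 and 0 to 117 and 115 CPM in WT and from 4.06 and 1.72 to 160.0 and 148 CPM in Adap-/- PMs. The sharpest falls included Cnr2, the cannabinoid receptor of immune cells, at chr4:135646436-135646536, which read 30.4 and 27.3 CPM in WT mock and 25.3 and 17.5 in Adap-/- mock samples, and between 0 and 0.413 CPM in the 4 LPS samples. With 2 reads left in WT LPS PMs, its ratio of mock to LPS was 75.4 (95% counting interval 20.6 to 628).

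The cytosolic isocitrate dehydrogenase gene Idh1 fell at chr1:65197874-65198074, from 464 and 595 CPM to 31.0 and 34.3 CPM in WT and from 451 and 421 to 51.0 and 52.6 CPM in Adap-/- PMs, with log2 fold changes of -4.02 ± 0.15 and -3.07 ± 0.14. Cd93, a C-type lectin-like receptor of phagocytes, fell at chr2:148280384-148280459 by log2 fold changes of -4.00 ± 0.20 and -3.29 ± 0.18 (adjusted p = 1.85e-12 and 3.74e-12). The clathrin adaptor gene Hip1 (-4.92 and -3.74), 6430548M08Rik (-4.31 and -3.60) and a peak shared by Tmem154 and Arfip1 (-4.64 and -3.14) fell in both genotypes. In both Rassf4 and Notch2, which hold several 3'UTR-only peaks, each peak rose: the 5 peaks of Rassf4 did by at least 2.07 in WT and 1.72 in Adap-/- PMs, and the 4 of Notch2 by 1.37 to 1.63 and 1.11 to 1.51.

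**Figure D4:**
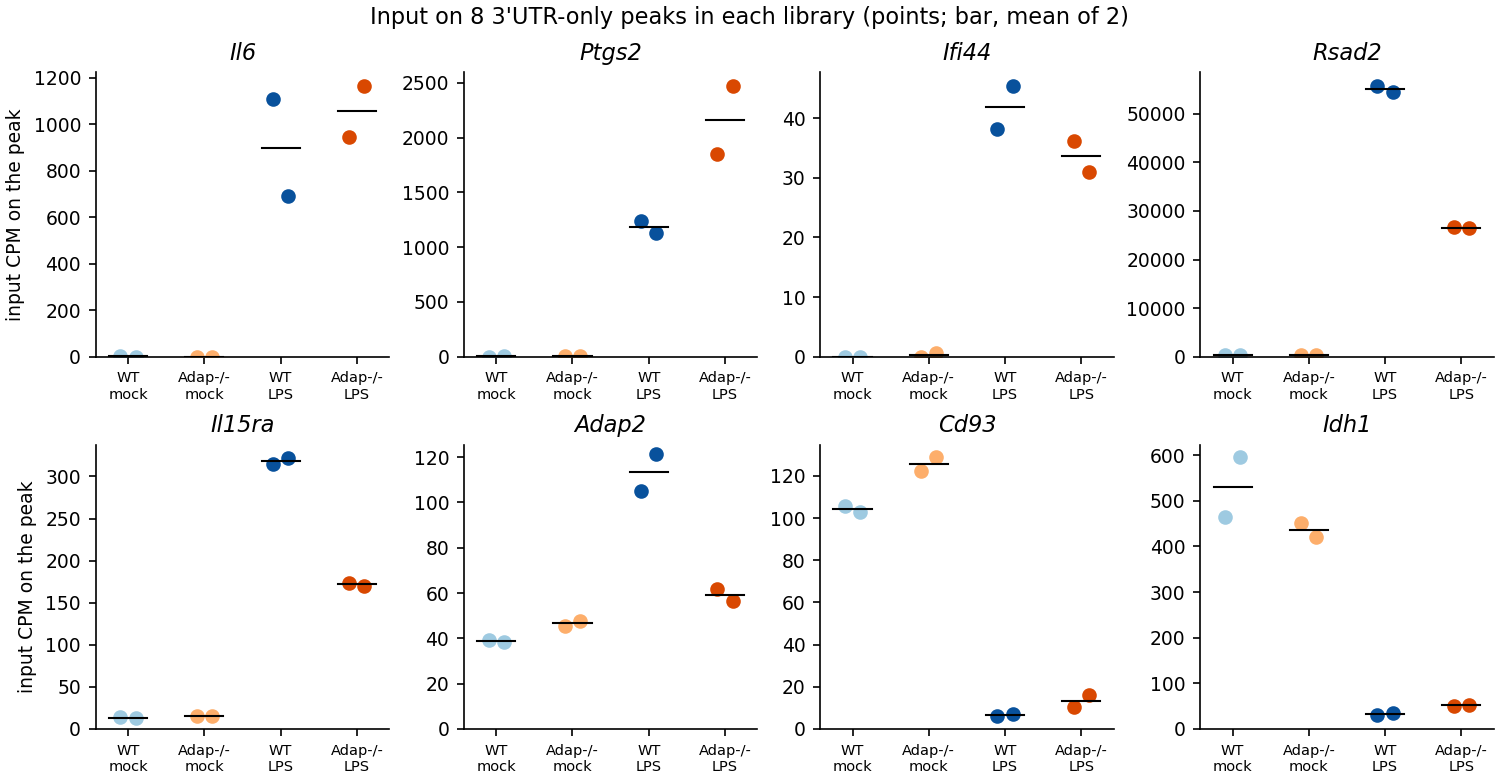
Input CPM (vertical axis, linear from 0 and scaled for each gene) in each of the 8 input libraries (points; bars, means of 2), by group (horizontal axis), for the 3'UTR-only peaks of 8 genes. Il6, Ptgs2, Ifi44, Rsad2, Il15ra and Adap2 are higher after LPS in WT PMs and Cd93 and Idh1 lower, and in Rsad2, Il15ra and Adap2 both Adap-/- LPS samples lie below both WT LPS samples.

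Whether a 3'UTR-only peak responded differently to LPS in the genotypes was tested as the difference between the Adap-/- and WT responses in input. This was an edgeR interaction contrast, added after seeing the data. Of the 1111 peaks, 2 had a higher and 8 a lower response in Adap-/- PMs with a difference beyond 1 in size and an adjusted p below 0.05, where 0.132% and 0.971% of all 6794 peaks did.

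Rsad2, Il15ra and Adap2 were among the lower responses. Several of the lower peaks share 1 gene and are not independent. The Rsad2 peak spans 9314 bases of the genome, so its reads cannot be placed in the 3'UTR alone. Rsad2 rose from 336 and 431 to 55784 and 54587 CPM in WT and from 413 and 396 to 26676 and 26472 CPM in Adap-/- PMs, a difference of -1.13 ± 0.18 on the log2 scale (SE, adjusted p = 0.00192). The mock values of the genotypes overlapped, and the Adap-/- LPS values were both below the WT ones. A peak at chr19:34627128-34627403 lay on a gene given here only by its identifier (ENSMUSG00000034459) and so matched to no list. It went from 4.07 and 7.98 to 941 and 1021 CPM in WT PMs. In Adap-/- PMs it went from 11.6 and 11.8 to 507 and 531 CPM (-1.88 ± 0.30, adjusted p = 0.00176, edgeR interaction contrast). Il15ra, which presents interleukin 15 to other cells, reached 315 and 322 CPM in WT and 174 and 170.1 CPM in Adap-/- LPS samples from 13.8 and 13.0 and 15.3 and 15.8 CPM in mock (-1.11 ± 0.22, adjusted p = 0.00991).

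Adap2, a GTPase-activating protein gene for Arf proteins that is unrelated to Fyb1 despite its symbol, reached 105 and 121 CPM in WT and 61.9 and 56.3 CPM in Adap-/- LPS samples at chr11:80069624-80069674 (-1.20 ± 0.20, adjusted p = 0.00242). The 2 peaks with a higher response in Adap-/- PMs had a less negative change there. They were that of Tmem154 and Arfip1 (1.50) and that of the cholesterol exporter gene Abcg1 (2.87). Abcg1 read 14.1 and 19.6 CPM in WT mock and 7.81 and 6.61 in Adap-/- mock samples. After LPS it read 1.07 and 2.06 CPM in WT and 2.89 and 7.34 in Adap-/- samples. Adap-/- against WT, the Abcg1 peak had adjusted p = 0.0241 in mock (log2 -1.22) and 0.0850 after LPS (edgeR). The Tmem154 peak had 0.00118 in mock (log2 -0.71) and 0.110 after LPS. The number of calls was 6 without Adap-/- mock replicate 2 and 16 without WT mock replicate 1, and Tmem154 and Abcg1 were called in 4 of 10 alternatives.

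Between genotypes at the same treatment few 3'UTR-only peaks differed in input. After LPS 15 of 1111 were higher in Adap-/- PMs and 18 lower, where 1.25% and 1.31% of all peaks were. In mock PMs 17 were higher and 13 lower, where 1.84% and 1.00% of all peaks were. Of these calls 12 were made in the same direction in both treatments, 36.4% of the LPS and 40.0% of the mock calls, and none in opposite directions. Those called in both treatments included podoplanin (Pdpn), Sfrp5, Serpina3g and Dlg3 among the lower, and Icosl, Osbpl3, Saa3 and Cxcl2 among the higher.

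Pdpn, a mucin-type surface glycoprotein of stromal cells and activated macrophages, gave the smallest p. At chr4:142994125-142994400 it read 237 and 256 CPM in WT mock, 56.6 and 57.5 in Adap-/- mock, 1083 and 1167 in WT LPS and 281 and 286 in Adap-/- LPS samples. LPS raised it in both genotypes, and in both treatments the Adap-/- samples lay far under the WT samples. The log2 fold change of Adap-/- over WT was -1.99 ± 0.11 after LPS (SE, adjusted p = 5.22e-10) and -2.11 ± 0.12 in mock PMs (adjusted p = 1.04e-09). Sfrp5, a secreted inhibitor of Wnt ligands, was lower too (-2.25 after LPS, adjusted p = 0.00503, and -1.94 in mock). Of the 8 mesothelial and fibroblast markers, the 2 with a peak had a summed input of 51.9 and 86.1 CPM in WT mock, 100.4 and 62.9 in Adap-/- mock, 52.5 and 97.3 in WT LPS and 110.3 and 54.3 in Adap-/- LPS samples. Their part in these differences was not tested.

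After LPS the lower peaks also included Lrrc32 (-2.21), which encodes the docking receptor of latent TGF-beta, and both peaks of Cd300lb (-1.78 and -1.28). The higher ones included Aph1b, a gamma-secretase subunit gene (2.27, adjusted p = 0.00483), Pdgfrb, the PDGF receptor beta gene (1.49, adjusted p = 0.000445), and among secreted mediators Cxcl2 (1.07), Lif (1.26, adjusted p = 0.0116) and Saa3 (1.04). In mock PMs the largest differences were those of Tarm1, with a ratio of 17.6 (95% counting interval 2.8 to 733) over 1 read in WT mock, the actin regulator gene Jmy (1.86), the B cell and macrophage transcription factor gene Pou2f2 (1.78) and Serpina3g, a serine protease inhibitor gene (-2.47). The count after LPS was 19 without Adap-/- LPS replicate 2, and that in mock PMs was 9 without Adap-/- mock replicate 2.

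The m6A comparison asked whether the ratio of IP to input on a peak differed between groups, that is, whether antibody-bound RNA changed beyond the change of the transcript itself. With the adjusted p, no 3'UTR-only peak passed in any of the 4 comparisons by edgeR's quasi-likelihood test. At an unadjusted p below 0.05 alone 76 did for Adap-/- against WT after LPS and 28 in mock PMs. After LPS these were 25 higher and 51 lower, where 3.05% and 4.08% of all peaks were, and in mock PMs 17 higher and 11 lower, where 1.09% and 1.01% of all peaks were, so these shares are near those of all peaks (6.71% of the 1133 after LPS and 2.47% in mock PMs). DESeq2 called 7 and 0 at its adjusted p, and limma voom 0 and 0. The counts below take a log2 fold change beyond 1 in size with an unadjusted p under 0.05, and describe these libraries without control of false calls. After LPS 11 of the 1133 peaks had a higher ratio in Adap-/- PMs and 29 a lower one, where 1.32% and 2.82% of all 7058 peaks did. In mock PMs 10 were higher and 10 lower, where 0.680% and 0.595% of all peaks were. The median difference over 3'UTR-only peaks was -0.01 after LPS and 0.02 in mock, and over all peaks 0.01 and -0.01. Over the 117 peaks that LPS raised more than 4-fold in input in both genotypes, the mock median was -0.21. It was 0.30 with WT mock replicate 1 and Adap-/- mock replicate 2 left out. The total of 40 after LPS was 23 without WT LPS replicate 1, 79 when Adap-/- LPS replicate 1 was left out and 63 when its replicate 2 was. The total of 20 in mock PMs was 67 without WT mock replicate 2, 49 without Adap-/- mock replicate 1 and 13 without either WT LPS sample, so these totals rest on single libraries.

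About as many of the 29 lower ratios after LPS lay on transcripts that LPS lowers strongly as on all others. Of the 61 3'UTR-only peaks that LPS lowered more than 4-fold in input in both genotypes, 15 (24.6%) had a lower ratio in Adap-/- LPS than in WT LPS PMs and 0 a higher one. Of the 117 LPS-raised peaks none was called, and of the other 955 peaks 11 were higher and 14 lower. These classes come from the same input libraries that enter the ratio, and after LPS such peaks have little input. Without WT LPS replicate 1 the count of 15 became 9, and over all samples left out in turn it lay between 9 and 20.

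The smallest unadjusted p among them was that of the 3'UTR peak of Cd300lb at chr11:114814406-114814531, 125 bases long. It held 173 and 172 IP reads in the 2 WT LPS samples and 0 and 0 in the 2 Adap-/- LPS samples, while input held 34 and 34 reads in WT LPS and 10 and 11 in Adap-/- LPS samples. In CPM, IP read 26.1 and 11.9 against 0 and 0 and input 12.1 and 14.0 against 3.21 and 4.49, so IP was at least 91.4-fold lower against the floor of 3 reads per library while input differed by -1.78 on the log2 scale. The unadjusted p of the ratio was 5.29e-05 and the adjusted p 0.0747, and over the 19 alternatives the adjusted p lay between 8.42e-05 with DESeq2 and 0.764 with limma voom, with 3 below 0.05. The other 3'UTR peak of Cd300lb, 175 bases away in the table's coordinates, had a ratio difference of -0.87 ± 0.50 (unadjusted p = 0.107). The IP reads of WT and Adap-/- samples did not overlap, on an input of few reads in every LPS sample.

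Cd300a, an inhibitory receptor of the same family beside Cd300lb on chromosome 11, read 40.6 and 19.4 IP CPM in WT LPS and 2.93 and 4.06 in Adap-/- LPS samples at chr11:114792342-114792392, with input of 40.3 and 33.4 and 30.5 and 17.9 CPM. The log2 difference in ratio was -2.51 ± 0.59 (unadjusted p = 0.00132, adjusted p = 0.379). Cd93 had IP of 15.7 and 7.71 CPM in WT LPS and 3.74 and 2.74 CPM in Adap-/- LPS samples, although its input was the higher in the latter (6.06 and 7.02 against 10.3 and 15.9 CPM). The log2 difference in ratio was -2.80 ± 0.53 (unadjusted p = 0.000252, adjusted p = 0.162). In Pnpla7 the IP values were 21.4 and 11.7 CPM against 1.62 and 1.24 CPM (-3.97 ± 0.95, unadjusted p = 0.00153), and the ratio was lower in mock PMs (-3.44, unadjusted p = 0.00242). 6430548M08Rik had IP reads of 38 and 94 against 0 and 2 on input reads of 4 and 5 against 9 and 2, too few for the size of its ratio to be read.

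DESeq2's 7 calls were Cd300lb, Cd300a, Cd93, Pnpla7, 6430548M08Rik, Idh1 and Cnr2, each a transcript with lower input after LPS. Among the higher ratios in Adap-/- PMs without overlap between replicates, Jade2 had the smallest unadjusted p. Jade2, encoding a chromatin reader of histone acetyltransferase complexes, had IP of 5.88 and 8.82 CPM in WT LPS and 20.3 and 25.6 in Adap-/- LPS samples on like input (8.92 and 13.2 against 9.94 and 11.8 CPM), a difference of 1.64 ± 0.48 (unadjusted p = 0.00562, adjusted p = 0.525). C2cd2 (1.51), Inafm2 (1.30), the mitochondrial ATPase gene Atad3a (1.19) and the Golgi protein gene Tmem115 (1.03) came next by p, with unadjusted p from 0.00919 to 0.0168. Larger differences with a larger p were those of Zhx3 (2.51, unadjusted p = 0.0246), Cradd (2.06, unadjusted p = 0.0350), Tbck (1.72, unadjusted p = 0.0468) and Slc16a13 (unadjusted p = 0.0199).

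On the response to LPS within a genotype, the ratio of 27 3'UTR-only peaks was higher and of 68 lower in WT PMs, where 2.69% and 5.13% of all peaks were, and in Adap-/- PMs 13 were higher and 65 lower, where 2.44% and 4.56% of all peaks were. None passed the adjusted p with edgeR. At an unadjusted p below 0.05 alone 145 (12.8%) and 120 (10.6%) did. In WT PMs these were 51 higher and 94 lower, where 4.82% and 5.99% of all peaks were, and in Adap-/- PMs 29 higher and 91 lower, where 5.88% and 5.62% of all peaks were. DESeq2 called 34 and 23 at its adjusted p, and limma voom called 5 in WT PMs (Idh1, Pdxk, Cd300lb, ENSMUSG00000040253 and Cxcl10). Median differences were 0.00 and -0.08, against 0.10 and 0.05 over all peaks. With IP and input scaled separately they moved down by a median of 0.11 and 0.14, with 23 higher and 83 lower in WT and 7 and 83 in Adap-/- PMs. With each sample's input and IP library as a block, 1 peak, that of Il6, passed the adjusted p in each genotype, with a lower ratio after LPS. The total of 95 in WT PMs was 41 without WT mock replicate 1, 171 without WT mock replicate 2, and 55 or 53 without WT LPS replicate 1 or 2. The total of 78 in Adap-/- PMs was 129 without mock replicate 1 and 44 without mock replicate 2.

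Most of the lower ratios were on LPS-raised transcripts. Of the 117 peaks, 56 in WT (47.9%) and 46 in Adap-/- PMs (39.3%) had one, with 0 higher in either. The classes were set by the same input libraries that form the ratio, so this lean was favoured in advance and is no separate evidence. They were formed for 3'UTR-only peaks alone. Among listed genes lower ratios were on 16 of 25 secreted-mediator peaks, 8 of 14 interferon-stimulated and 3 of 13 NF-kB regulator peaks in WT PMs. In Adap-/- PMs they were on 15, 5 and 3. Of all peaks 5.13% in WT and 4.56% in Adap-/- PMs had a lower ratio. Of the 61 LPS-lowered peaks 17 had a higher ratio in WT PMs (27.9%), and in Adap-/- PMs 3 were higher and 4 lower. These counts rest on single libraries, mock and LPS alike. Without WT mock replicate 1 the count of LPS-raised peaks with a lower ratio in WT PMs was 12, and without WT mock replicate 2 it was 84. Without WT LPS replicate 1 or 2 it was 28 or 24. In Adap-/- PMs the median log2 difference of the LPS-raised peaks was -1.46 with all samples. It was -1.97 without mock replicate 1, -0.86 without mock replicate 2, and -1.64 or -1.45 without LPS replicate 1 or 2. The 17 LPS-lowered peaks with a higher ratio in WT PMs became 8 without WT LPS replicate 1. With both doubted mock samples left out, the median of the LPS-raised peaks was -0.61 in WT (-1.65 with all samples) and -0.86 in Adap-/- PMs. That of the LPS-lowered peaks in WT PMs was 0.64 (0.82 with all samples).

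Il6 was among these peaks. Its IP read 172 and 4.9 CPM in WT mock and 12.8 and 164 CPM in Adap-/- mock samples, and 137 and 58.4 CPM in WT LPS and 113 and 166 CPM in Adap-/- LPS samples. Mock IP was highest in the same 2 samples, WT mock replicate 1 and Adap-/- mock replicate 2, and each mock input library held at most 5 reads of this peak, so the mock ratio is not measured well. The cause of these mock IP values was not tested.

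**Figure D5:**
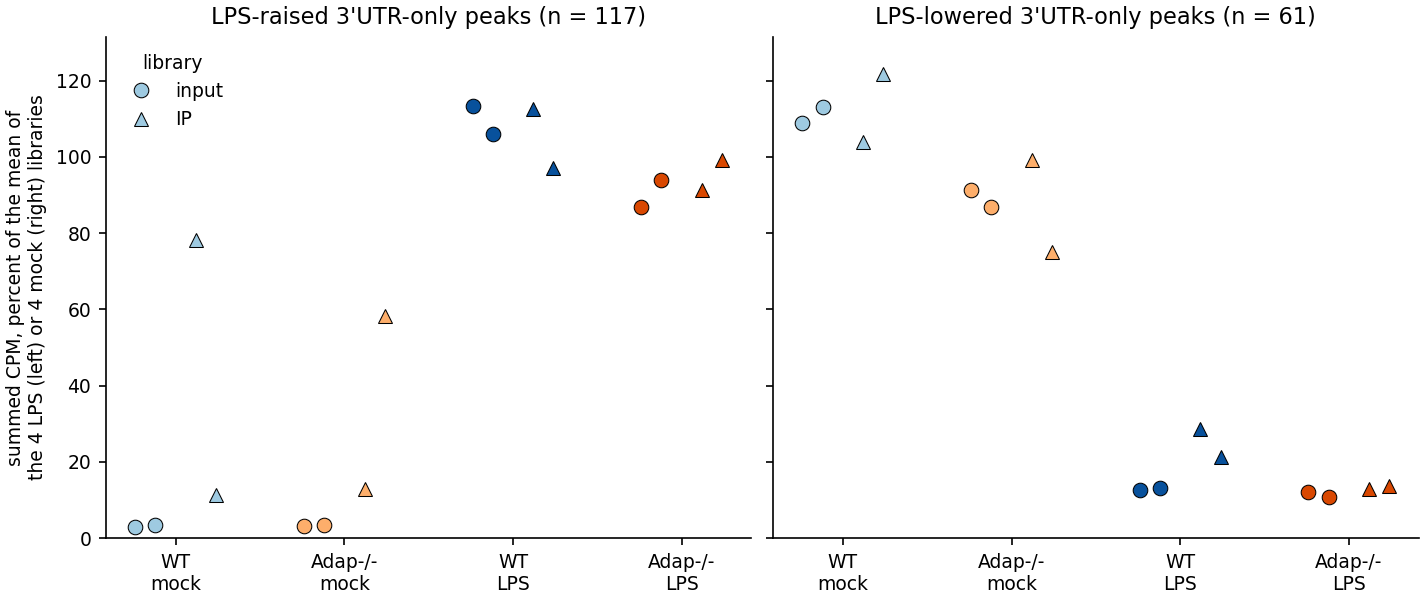
Summed CPM over the 117 LPS-raised (left) and 61 LPS-lowered (right) 3'UTR-only peaks, as percent of the mean of the 4 LPS or the 4 mock libraries of the same kind (vertical axis), for each of the 16 libraries by group (horizontal axis; circles input, triangles IP). On the left, WT mock replicate 1 (78.3%) and Adap-/- mock replicate 2 (58.2%) stand high in IP while all mock input lies near 3%, and on the right WT LPS IP (28.5% and 21.3%) stands above Adap-/- LPS IP (12.9% and 13.8%).

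Sums over the LPS-lowered peaks were set against the mean of the 4 mock libraries of the same kind, both genotypes together. IP in LPS samples stood at 28.5% and 21.3% in WT and 12.9% and 13.8% in Adap-/- PMs, with no overlap between genotypes. Input stood at 10.8% to 13.2% in all 4 LPS samples. The mock samples differed too, with IP at 103.9% and 121.8% in WT and 99.1% and 75.2% in Adap-/- samples. Mock input stood at 108.8% and 113.0% in WT and 91.3% and 86.9% in Adap-/- samples. The LPS sums restate the lower ratios in Adap-/- LPS PMs given above.

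A change in where reads fall within a gene was tested as the LPS response of a peak against that of its gene as a whole in input (edgeR diffSpliceDGE), possible for 616 3'UTR-only peaks. At an adjusted p below 0.05, 1 was called in each genotype, and in both it was the same peak, at chr16:21495957-21496107 on a gene that the table calls C3orf70, where 0.252% of all 3578 peaks tested were called in WT and 0.279% in Adap-/- PMs. It read 27.2 and 31.9 CPM in WT mock, 27.2 and 21.6 in Adap-/- mock, 54.6 and 42.5 in WT LPS and 37.8 and 48.9 in Adap-/- LPS samples, so all LPS samples lay above all mock samples. The stop-codon peak of the same gene fell instead, from 142 and 145 CPM in WT mock to 89.2 and 68.1 CPM in WT LPS samples and from 151 and 161 to 83.4 and 102 CPM in Adap-/- samples. The log2 fold change of the 3'UTR-only peak was 0.72 in WT and 0.82 in Adap-/- PMs, and that of the stop-codon peak -0.86 and -0.76. Relative to its gene as a whole, the coefficient of the 3'UTR-only peak was 1.16 ± 0.20 in WT (adjusted p = 0.00232) and 1.23 ± 0.20 in Adap-/- PMs (adjusted p = 0.00173). The WT call was lost without either WT mock sample and the Adap-/- call without Adap-/- mock replicate 2. At an unadjusted p below 0.05, 26 peaks (4.22%) passed in WT and 18 (2.92%) in Adap-/- PMs, where 3.21% and 2.68% of all peaks did. Abcg1 came next in WT PMs, at -2.26 (adjusted p = 0.0555).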

How the data were processed

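MeRIP-seq was performed on PMs of 4 groups (WT and Adap-/-, mock or LPS), each with 2 samples, and each sample with an input and an IP library. Per the file headers, the authors deposited raw read counts per merged peak and library, with the gene and transcript region of each peak. The submitters' processing notes name Bowtie2 2.2.8, MACS2 2.1.2, DiffBind 2.8 and the build GRCm39, without a role or order. Coordinates are those of the table. Whether they count from 0 or 1, and whether peaks were called per sample or on pooled samples, is not given in the sources used here. Length is end minus start.

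The 8094 lines were reduced to 7069 distinct peaks, as a peak on several genes is listed for each with identical counts. The members and gene lists were chosen with earlier results of these data known. Symbols of the table were matched to RefSeq (GRCm39) gene names. Of the 969 genes 818 matched exactly, 61 apart from case and 28 by a synonym. Another 14 kept an unmatched symbol, and 7 had none and are given by identifier. The identifier replaced the symbol for 33 genes whose symbol several identifiers carry and 8 whose symbol lies on another chromosome. Genes given by identifier enter no gene list. No genome sequence of this build was used, so no peak sequence is printed.

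Counts were tested in R 4.3.3 with edgeR 4.0.16 by its quasi-likelihood test after TMM scaling, with Benjamini-Hochberg adjustment over all peaks tested. Peaks of low count were left out by filterByExpr (count of 10, total of 15). The IP-to-input ratio was fitted over 16 libraries (7058 peaks, common coefficient of variation 30.6%) and input over 8 libraries (6794 peaks, 8.92%). Calls required an absolute log2 fold change above 1 with p below 0.05, adjusted for input and unadjusted for m6A (the study's methods state no threshold for peaks), and an adjusted p below 0.05 for the ratio over all groups and for a peak against its gene as a whole. CPM is reads scaled to 1000000 on peaks after TMM. LPS-raised and LPS-lowered peaks are those past an absolute log2 fold change of 2 in input in both genotypes. Confidence intervals of ratios over 1 to 3 reads are 95% and cover counting error only, as no molecule was marked before PCR. The fits were also run on simulated counts. For the m6A fit these had a smaller spread than the data and none of the disagreement between mock IP libraries. That run does not show how the m6A fit performs at the spread seen here.

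The input and IP libraries of the same number come from 1 RNA by the protocol in the labels. Across peaks, which are not independent, their deviations from the group mean correlated with r between -0.0969 and 0.0839. Peaks were named by rule: the 10 highest and 5 lowest IP-to-input ratios, the first 5 per direction in each comparison (8 for LPS in WT input) among calls without overlap between replicates, peaks on listed genes or on genes the study names, and the genes with the most peaks. Some peaks within the rule are counted but not reported here by name. Alternatives were other size factors, no filter, at least 10 mean input reads, separate scaling of IP and input, DESeq2 1.42.0, limma 3.58.1 voom, replicate blocks, only the 8 libraries compared, and each sample left out. Added after seeing the data were leaving out 2 mock samples, crossed WT mock numbers, narrower definitions of the peaks, and the difference between LPS responses. Peaks over a stop codon or in the CDS were used for comparison only.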

Additional observations from a re-analysis of the deposited data

Results flagged for a closer look

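The input of 10 3'UTR-only peaks responded to LPS differently in the genotypes, by a test of the difference itself (edgeR interaction contrast, adjusted p below 0.05, absolute difference above 1). These were 2 higher and 8 lower of the 1111 tested, where 0.132% and 0.971% of all 6794 peaks were. The Adap-/- response minus the WT response, on the log2 scale, was among others -1.88 for ENSMUSG00000034459, -1.20 for Adap2, -1.13 for Rsad2 and -1.11 for Il15ra, and it was 1.50 for the peak shared by Tmem154 and Arfip1 and 2.87 for Abcg1. In 10 alternatives, ENSMUSG00000034459 and Adap2 were called each time, Rsad2 in 9, Il15ra in 8, and Tmem154 and Abcg1 in 4. The cause of these differences was not tested. Groups held 2 samples, so no sample was tested as standing apart from its group.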

How the results depend on the processing

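Of 193 values of peaks chosen by the naming rule, leaving aside the differing LPS responses, 169 kept their direction and side of the threshold under every alternative run, 24 lost the threshold under at least 1, and none turned direction. Of the 10 such m6A values, 5 kept it throughout.

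Among counts of 3'UTR-only peaks past the adjusted p in m6A, DESeq2 gave 7 for Adap-/- against WT after LPS and 34 and 23 for LPS against mock in WT and Adap-/- PMs, where edgeR gave 0, and limma voom gave 5 in WT. Leaving out the 2 doubted mock samples gave 8 and 10, and 63 rather than 95 by the unadjusted rule in WT. In mock PMs, the unadjusted m6A count of 20 was 11 with limma voom and 10 with only the 8 libraries compared. The input count in mock PMs was 18 with DESeq2 rather than 30. With separate scaling, 594 peaks lay above and 130 below the average ratio. The causes were not tested.

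With the input and IP library of a sample as a replicate block, 1 peak passed the adjusted p for LPS in each genotype, and 4 (WT) and 5 (Adap-/-) with the WT mock numbers crossed. The replicate numbers did not pair samples across groups (r of deviations -0.0604 to 0.0544 in input, -0.540 to 0.239 in IP). With that number as a block, the input counts were 32 and 27 between genotypes after LPS and in mock, and 482 and 436 for LPS in WT and Adap-/- PMs, the peaks against their gene as a whole 2 and 1, and the differing LPS responses 10.

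Leaving out 1 sample at a time, the m6A counts ranged from 23 to 79 between genotypes after LPS, 13 to 67 in mock, 41 to 171 for LPS in WT and 44 to 129 in Adap-/- PMs, and past the adjusted p from 0 to 3, 0 to 0, 0 to 15 and 0 to 0. Input counts ranged from 19 to 44, 9 to 37, 458 to 489 and 418 to 441 in the same order, and differing LPS responses from 6 to 16. Peaks apart from the average ratio ranged from 523 to 636 (higher 227 to 277, lower 296 to 359), and peaks against their gene as a whole from 0 to 2 in WT and 0 to 1 in Adap-/- PMs. A group left with 1 sample takes its spread from the other groups.

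Depth limits the ratio most where input is low: 50 of the 1133 peaks had a mean input below 10 reads, and 22 were not tested in input.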
